A study of Homo sapiens with 2 samples.

Results

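The cells described here are OVCAR5 cells, an ovarian carcinoma line, that carried antiviral transcripts although the cells around them in the same hashtag pairs held little IRF1. A cell counted as antiviral-high when it held at least 3 UMIs (unique molecular identifiers, 1 per captured transcript) summed over HERC5, RSAD2 and CCL5. Only cells of the hashtag pairs 1+2, 2+4, 3+5, 5+7 and 1+5 were taken, the 5 pairs with the lowest IRF1. This rule found 83 antiviral-high cells among 1730 cells of these pairs, and the 1647 other cells of the same pairs served for comparison. The whole deposited matrix held 7804 barcodes, of which 7201 passed the cell filter and 6114 also had a readable pair. All cells carried a reporter for interferon-gamma sensing and were CFP+, per the labels. The labels name 18 conditions in 1 pool, covering unstimulated cells and interferon-gamma doses of 1, 10 and 100 ng/ml, each harvested after 2, 6, 12 and 24 h, plus frozen cells of the unstimulated and 100 ng/ml conditions at 24 h. It was read as 1 library of transcripts and 1 of hashtags that describe the same cells. The dose and time behind each hashtag are not given in the sources used here, and pairs therefore go by hashtag number. Because the pool is 1 sample and the cells were chosen by transcripts measured in them, every value below is a description without a test, and every interval is at 95% and covers counting error only.

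Cells sense viral or misplaced RNA through the helicases RIG-I (DDX58) and MDA5 (IFIH1), and DNA through cGAS and STING. These sensors activate the kinase TBK1 and the factor IRF3, which induce type I and III interferons together with a set of antiviral genes. Secreted type I and III interferons act through receptor-bound JAK kinases and a factor complex that contains IRF9, whereas IRF1 is a main mediator of the interferon-gamma response. Many antiviral genes carry an interferon-stimulated response element, built on repeated GAAA blocks, which IRF factors can bind.

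The promoters of both markers with a window in RefSeq, and of 3 further genes that led the contrast, are shown because they share this type of element. The windows run over 250 bases before and 50 bases after the gene's start in GRCh38.p14 and are written along the gene's strand. Capitals mark each match of the motif GAAA, any 2 bases and again GAAA, on either strand, so that it reads TTTC, any 2 bases and TTTC on the other strand, and adjoining or overlapping matches run together. They are HERC5 at chr4:88456869-88457168 (plus strand), RSAD2 at chr2:6877527-6877826 (plus strand), IFIT1 at chr10:89392373-89392672 (plus strand), ISG15 at chr1:1013247-1013546 (plus strand) and IFIH1 at chr2:162318635-162318934 (minus strand).
HERC5: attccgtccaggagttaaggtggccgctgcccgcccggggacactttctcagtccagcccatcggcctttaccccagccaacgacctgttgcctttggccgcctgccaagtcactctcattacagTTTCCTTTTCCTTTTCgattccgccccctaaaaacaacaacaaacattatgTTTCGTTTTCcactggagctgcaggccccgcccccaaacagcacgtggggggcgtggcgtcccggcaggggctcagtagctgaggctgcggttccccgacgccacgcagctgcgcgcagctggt
RSAD2: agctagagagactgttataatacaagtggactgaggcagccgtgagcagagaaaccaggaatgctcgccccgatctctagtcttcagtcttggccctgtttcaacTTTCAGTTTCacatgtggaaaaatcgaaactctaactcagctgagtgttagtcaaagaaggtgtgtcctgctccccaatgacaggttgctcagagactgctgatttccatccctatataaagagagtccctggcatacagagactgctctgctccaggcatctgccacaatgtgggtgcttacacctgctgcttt
IFIT1: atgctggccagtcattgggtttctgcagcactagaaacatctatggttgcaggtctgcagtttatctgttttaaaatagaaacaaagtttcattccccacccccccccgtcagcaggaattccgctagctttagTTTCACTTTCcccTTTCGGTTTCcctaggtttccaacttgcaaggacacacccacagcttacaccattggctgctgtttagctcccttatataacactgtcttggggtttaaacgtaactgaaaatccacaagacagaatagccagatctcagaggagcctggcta
ISG15: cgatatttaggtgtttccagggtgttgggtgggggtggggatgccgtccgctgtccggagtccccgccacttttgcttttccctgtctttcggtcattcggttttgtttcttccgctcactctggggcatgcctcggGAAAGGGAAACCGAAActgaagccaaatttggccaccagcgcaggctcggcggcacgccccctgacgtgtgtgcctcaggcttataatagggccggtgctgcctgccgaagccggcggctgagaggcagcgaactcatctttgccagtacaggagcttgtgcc
IFIH1: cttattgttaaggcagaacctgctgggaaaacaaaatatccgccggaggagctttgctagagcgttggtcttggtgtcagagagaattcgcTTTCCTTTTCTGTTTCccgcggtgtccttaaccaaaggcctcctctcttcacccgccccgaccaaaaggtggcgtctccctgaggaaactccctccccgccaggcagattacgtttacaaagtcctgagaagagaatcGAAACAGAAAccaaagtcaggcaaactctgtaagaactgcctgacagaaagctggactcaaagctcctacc
RSAD2 has a second RefSeq window without the motif. Of the 25 genes at least 5-fold higher in antiviral-high cells, 20 had a window and 14 of these (70%) held the motif. HERC5 and RSAD2, which chose the cells, are among them, and 12 of 18 (66.7%) held it without these markers. The share was 28.9% among genes at least 2-fold higher (28 of 97 with a window), and 27.4% without these markers (26 of 95). It was 3.99% among all tested genes (326 of 8176) and 3.7% among genes at least 2-fold lower (4 of 108). Over all 35116 windows it was 3.57%. PMAIP1, HERC6, ZC3HAV1, SPAG9, PLAUR and KLF4 had a window without these letters. The interferon-gamma type of element, TTCNNNGAA, which reads the same on both strands and was searched separately, stood in 13.4% of genes at least 2-fold higher, in 12.0% of genes at least 2-fold lower and in 8.28% of all tested genes. A match describes the letters in the window and is not evidence of binding.

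The 3 markers were unevenly spread over the 83 cells. HERC5, the ligase that attaches ISG15 to newly made proteins, was found in 79 cells, with a median of 8 and at most 33 UMIs. RSAD2 (viperin, which makes a chain-terminating nucleotide) was found in 54 cells, with a median of 3 and at most 70 UMIs. CCL5, a chemokine for T cells and monocytes, was found in 23 cells and reached 23 UMIs. Thus most of these cells were chosen through HERC5, and RSAD2 and CCL5 each missed a part of them. HERC5 and RSAD2 without CCL5 made up 36 cells, HERC5 alone 24, all 3 markers 17, CCL5 alone 3, HERC5 with CCL5 2 and RSAD2 with CCL5 1. The summed marker count ran over 3 to 92 UMIs, with a median of 13. Just inside the threshold 11 cells held exactly 3, and just outside it 15 cells held 2. Among other cells, 1525 of 1647 held no marker UMI, and antiviral-high cells held 92.1% of all marker UMIs of the 5 pairs. The rule itself caps other cells at 2 marker UMIs, so this percentage follows largely from it.

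**Figure D1:**
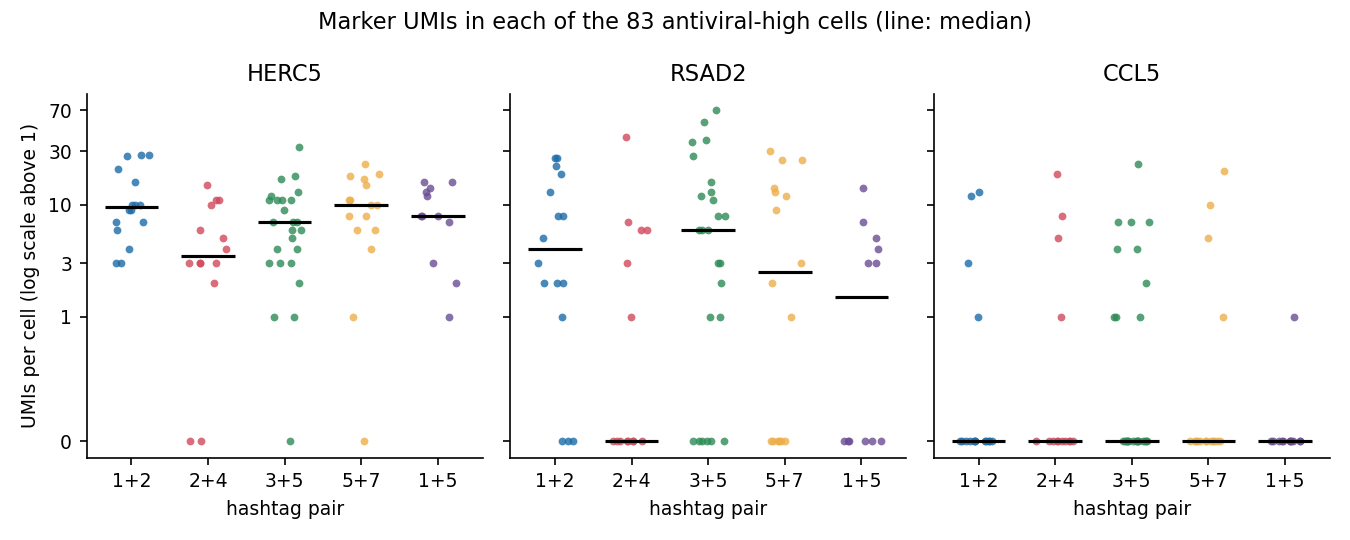
UMIs of HERC5, RSAD2 and CCL5 (y axis, logarithmic above 1) in each of the 83 antiviral-high cells, by hashtag pair (x axis), with a line at the median. HERC5 was above 0 in 79 cells, RSAD2 in 54 and CCL5 in 23, and in pair 2+4 the HERC5 and RSAD2 medians were the lowest of the 5 pairs.

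All 5 pairs held antiviral-high cells at a like share. They were 16 of 340 cells in pair 1+2, 14 of 320 in pair 2+4, 25 of 493 in pair 3+5, 16 of 334 in pair 5+7 and 12 of 243 in pair 1+5. The shares lay between 4.38% and 5.07%, and the exact binomial intervals overlapped. Over the 5 pairs the share was 4.80% (3.84 to 5.91%). IRF1 ran over 43.7 to 70.8 CPM (counts per 1e6 UMIs) in the 5 pairs, against 808 to 1357 CPM in the other 13.

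Antiviral-high cells resembled the other cells in line identity and were somewhat deeper. Their median total was 32792 UMIs against 30022 in other cells, with 5722 against 5533 genes and 11.1% against 11.3% mitochondrial UMIs. In each of the 5 pairs their median total was higher. It was 34016 against 27916.5 UMIs in pair 1+2 and 30106 against 29509.5 UMIs in pair 2+4. The third hashtag, which rises when cells of different pairs share a droplet, held a median of 0.704% of hashtag UMIs in antiviral-high cells and 0.887% in other cells. The pair rule keeps this share low in both groups, and cells of the same pair in 1 droplet would not raise it. These values therefore cannot show whether droplets were shared. The epithelial keratins KRT8 (1101 and 1084 CPM) and KRT18 (2478 and 2476 CPM) and EPCAM (58.0 and 59.5 CPM) were close in antiviral-high and other cells. Over the 11 tested epithelial markers the ratio ran over 0.728 to 1.67 with a summed ratio of 0.988, and single pairs ran over 0.88 to 1.20. PTPRC, TYROBP, CD3E, CD3D, NKG7, GNLY, LILRA4, CLEC4C and GZMB, which mark blood cells, had 0 UMIs in the antiviral-high cells. The limit for a count of 0 was set at 3 UMIs, or 1.07 CPM there, which is somewhat tighter than the exact Poisson interval. The summed lists held 1 UMI of 4 plasmacytoid dendritic, 1 UMI of 5 fibroblast and 1 UMI of 4 endothelial markers in antiviral-high cells, against 6, 44 and 12 UMIs in other cells. Of 8 T and NK markers 7 were at 0 in antiviral-high cells, and CD8A had 4 UMIs there and 17 in other cells, or 1.42 against 0.335 CPM (ratio 4.25, interval 1.04 to 13). The part of such cells in the results was not tested. The myeloid list was at 27.4 CPM in antiviral-high and 33.0 CPM in other cells, mostly through CD68, and the mesothelial list at 37.0 and 43.4 CPM, mostly through CALB2.

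Across 10314 genes with at least 10 UMIs awaited in antiviral-high cells at equal levels, 137 (1.33%) were at least 2-fold higher there and 155 (1.5%) at least 2-fold lower. Of these, 108 (1.05%) were also higher in each of the 5 pairs and 114 (1.11%) lower in each. In 207 genes (2.01%) the 5 pairs of antiviral-high cells all lay above the 5 of other cells, and in 254 (2.46%) all lay below. The median ratio over all tested genes was 0.982. Genes past 2-fold differed in depth between the directions. Those at least 2-fold lower had a median of 16.6 UMIs awaited, and 134 of 155 had under 50, against a median of 43.2 and 79 of 137 for those higher. At least 5-fold, 25 genes (0.242%) were higher, and 12 (0.116%) passed 10-fold. Those 12 were RSAD2, HERC5, OASL, IFIT2, IFIT3, DDX60, IFIT1, IFIH1, DDX58, ISG20, HERC6 and ISG15, most of them known for antiviral defence or RNA sensing. RSAD2 and HERC5 chose the cells, so their ratios follow from the rule, and without them 135, 23 and 10 genes passed 2-fold, 5-fold and 10-fold. Among the 137 genes, RSAD2, HERC5, HERC6 and AC008105.3 reached the depth limit only through their UMIs in antiviral-high cells. Of the 137 higher genes, 50 belonged to one of the gene lists and 87 to none.

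OASL, an oligoadenylate synthetase relative that binds RIG-I, differed most after the markers. Its level was 819, 531, 611, 625 and 851 CPM in antiviral-high cells of pairs 1+2, 2+4, 3+5, 5+7 and 1+5, against 7.74, 6.45, 7.95, 6.14 and 8.69 CPM in other cells. The groups lay far apart in every pair, and the summed ratio was 92.1 (interval 82.4 to 103). Requiring at least 2 of the 3 markers gave a ratio of 44.6. There the antiviral-high cells with 1 marker detected counted among the other cells. OASL was above 0 in 81 of the 83 cells, and 3 of 1647 other cells exceeded the antiviral-high median of 576 CPM. With each cell thinned to 10000 UMIs it was detected in 91.5% of antiviral-high and 4.44% of other cells (97.6% and 10.6% before thinning), where 1 of 83 and 49 of 1647 cells were too shallow and left out. A UMI in other cells may come from free RNA in the droplet, which was not subtracted.

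The IFIT genes, which encode proteins that bind foreign RNA ends, were next. IFIT3 stood at 1268, 545, 1169, 1137 and 1180 CPM in antiviral-high cells of the pairs in the same order, against 52.9, 29.2, 40.7, 59.2 and 60.7 CPM in other cells, a ratio of 23.1 (21.9 to 24.4). IFIT1 reached 540, 203, 480, 360 and 515 CPM in antiviral-high cells and 26.2, 10.2, 17.9, 27.8 and 28.0 CPM in other cells, a ratio of 20.3 (18.7 to 22.1). For both genes pair 2+4 was lowest in antiviral-high and in other cells, so that its ratio was close to that of the other pairs. IFIT2 averaged 409 CPM in antiviral-high and 15.9 CPM in other cells, a ratio of 25.8 (23.5 to 28.2). IFIT5 was at 18.2 CPM in antiviral-high and 11.2 CPM in other cells, a ratio of 1.61, far under its relatives.

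Among the 29 antiviral effectors, 24 were tested and 14 of them were at least 2-fold higher, with none at least 2-fold lower and a median ratio of 2.92. Over all tested genes 1.33% were at least 2-fold higher and 1.5% at least 2-fold lower. ZC3HAV1, which binds CpG-rich viral RNA, was 7.16-fold higher and SAMD9 6.88-fold. OAS1 and OAS3, synthetases that activate RNase L, were 3.87-fold and 3.29-fold higher. By contrast MX1, a GTPase that traps incoming viruses and a usual reporter of secreted type I interferon, was at 79.4 CPM in antiviral-high and 28.1 CPM in other cells, a ratio of 2.82 (2.44 to 3.25). MX2 had a ratio of 1.07, IFI27 1.39, BST2 1.31 and IFITM2 0.88. For every 100 ISG15 UMIs there were 15.4 OASL and 1.79 MX1 UMIs in antiviral-high cells, against 1.81 OASL and 6.87 MX1 UMIs in other cells. The list sum without the markers was 5208 CPM in antiviral-high and 1531 CPM in other cells, a ratio of 3.40, with 2.70 to 3.90 in single pairs.

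**Figure D2:**
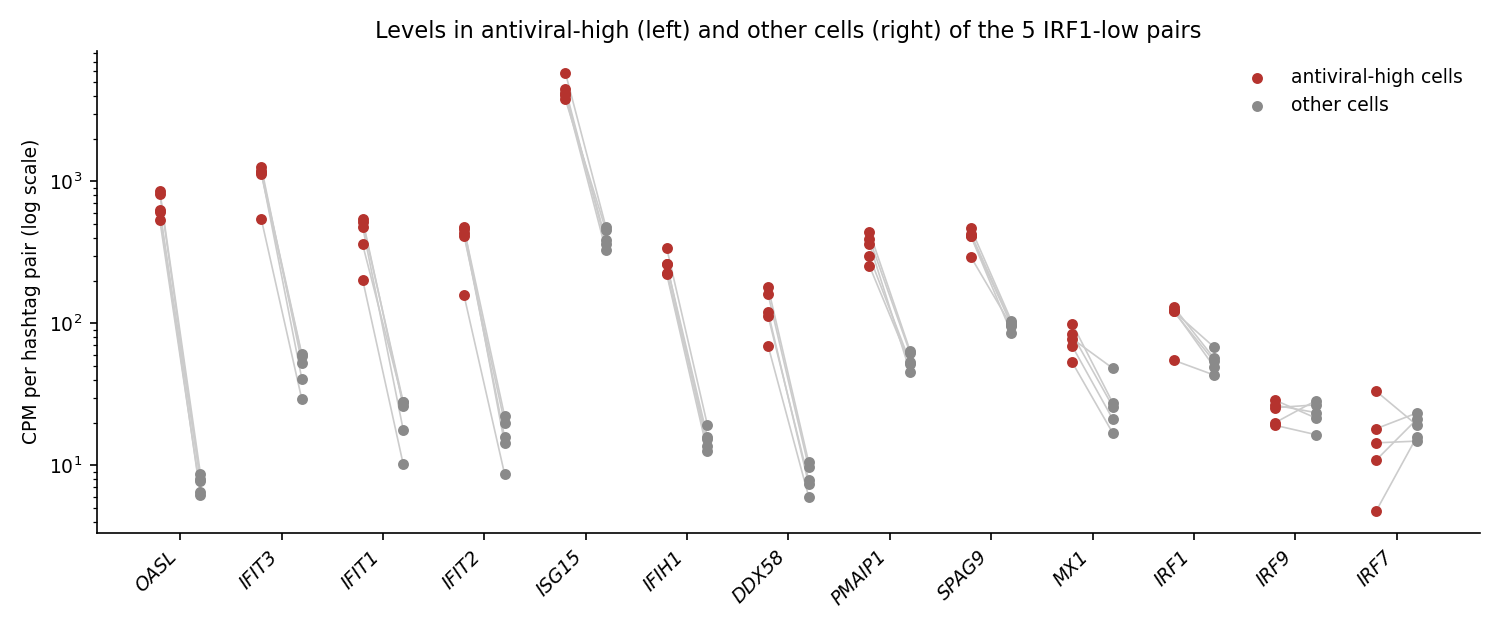
CPM (log scale) of 13 genes in antiviral-high cells (left, red) and other cells (right, grey) of each of the 5 IRF1-low pairs, joined by a line per pair. OASL, the IFIT genes, ISG15, IFIH1, DDX58, PMAIP1, SPAG9 and MX1 lay above the other cells in all 5 pairs without overlap, while IRF1, IRF9 and IRF7 overlapped.

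ISG15, the ubiquitin-like protein that HERC5 attaches, had 5846, 4183, 3793, 4502 and 4065 CPM in antiviral-high cells of pairs 1+2, 2+4, 3+5, 5+7 and 1+5, against 478, 388, 453, 361 and 326 CPM in other cells. The ratio was 10.8 (10.6 to 11.1). Every antiviral-high cell had ISG15 UMIs, but so did 98.5% of other cells, so the groups differed in amount and not in detection. UBE2L6, the E2 enzyme of ISG15 conjugation, was 2.46-fold higher. USP18, the ISG15 protease that dampens interferon signalling, was below the depth limit for testing, with 15.7 CPM in antiviral-high and 2.72 CPM in other cells.

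RNA sensors stood out from the adaptors behind them. IFIH1 (MDA5) was at 339, 222, 262, 260 and 228 CPM in antiviral-high cells of the pairs in the same order and at 19.4, 12.6, 13.6, 15.9 and 15.2 CPM in other cells, a ratio of 17.6 (15.9 to 19.5). DDX58 (RIG-I) was at 131 CPM in antiviral-high and 8.19 CPM in other cells (interval of the ratio 13.8 to 18.4) and the helicase DDX60 20.9-fold higher (17.8 to 24.7). STING, listed as TMEM173, was at 100.4 CPM in antiviral-high and 27.7 CPM in other cells, a ratio of 3.62. These 4 were the members past 2-fold among 12 tested sensors and adaptors, against 1.33% of all tested genes. MAVS, the adaptor of both RNA helicases, had a ratio of 0.94, the kinase TBK1 0.82, CGAS 0.95 and TRIM25, a RIG-I ubiquitin ligase, 1.11.

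The receptors and factors of interferon signalling were mostly level. IFNAR1 had 31.3 CPM in antiviral-high and 31.0 CPM in other cells, JAK1 67.0 and 72.0 CPM, and IRF9 24.6 and 23.1 CPM. Of 11 tested receptors and JAK-STAT members, STAT2 (2.31) and JAK2 (2.14) passed 2-fold, on 29 and 25 UMIs in antiviral-high cells. Over all tested genes the share at least 2-fold higher was 1.33%. IRF7, which amplifies type I interferon and is itself interferon-induced, was at 18.1, 4.78, 14.4, 10.9 and 33.1 CPM in antiviral-high cells of the 5 pairs, against 23.3, 15.9, 14.8, 21.1 and 19.2 CPM in other cells. Its ranges overlapped, with a ratio of 0.87 (0.63 to 1.18) and a higher level in 1 of 5 pairs. IRF1 was 2.09-fold higher in antiviral-high cells (115 against 54.7 CPM), which remained far under the 808 CPM of the lowest of the other 13 pairs. The ratio was 1.87 when at least 2 marker UMIs sufficed. In pair 2+4 IRF1 was at 55.0 CPM in antiviral-high and 43.2 CPM in other cells.

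Genes best known for the interferon-gamma response differed unevenly. PLAAT4, a phospholipase and acyltransferase, was at 673 CPM in antiviral-high and 97.6 CPM in other cells, a ratio of 6.89 (6.53 to 7.27). The apolipoproteins L, among them APOL1, which lyses trypanosomes, were higher by ratios of 4.07 (APOL1), 3.87 (APOL2) and 3.99 (APOL6). GBP4, a guanylate-binding GTPase, had a ratio of 9.17 (7.51 to 11.2), but GBP1 and GBP3 had 2.24 each and GBP2 1.42. GBP1 was at 1.68 with at least 5 marker UMIs and 1.97 without pair 3+5. IDO1, which breaks down tryptophan, was at 33.8 and 27.5 CPM, a ratio of 1.23. Of 10 tested interferon-gamma response enzymes and checkpoints, 5 passed 2-fold, against 1.33% of all tested genes.

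Antigen presentation genes differed by less. B2M, the light chain of MHC class I, was at 3096 CPM in antiviral-high and 1782 CPM in other cells, a ratio of 1.74 (1.70 to 1.78), and was higher in all 5 pairs. HLA-B had a ratio of 1.61 and HLA-C 1.53, where reads of these similar genes may be shared. PSMB9, an immunoproteasome subunit, passed 2-fold with a ratio of 2.34, as did TAPBPL and ERAP2, 3 of 17 tested class I genes. No tested class II gene of 3 did, and 1.33% of all tested genes did. CD74 was at 23.9 and 17.6 CPM, and HLA-DRA had 9 UMIs in antiviral-high cells and a ratio of 0.86.

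Several genes outside the classical interferon lists were among the highest. PMAIP1 (NOXA), a BH3-only protein that promotes apoptosis, stood at 440, 253, 393, 363 and 296 CPM in antiviral-high cells of pairs 1+2, 2+4, 3+5, 5+7 and 1+5, against 64.2, 51.8, 62.0, 45.8 and 53.3 CPM in other cells. The groups did not overlap, and the ratio was 6.41 (5.96 to 6.89). The death ligand TNFSF10 (TRAIL) was 2.77-fold higher. Of 16 tested cell death genes, PMAIP1 and TNFSF10 were the members past 2-fold, while BAX had 0.95 and CASP8 1.17. Over all tested genes 1.33% were at least 2-fold higher. PLAUR, the receptor of urokinase, was 5.07-fold higher (163 against 32.3 CPM). KLF4, a zinc-finger factor, was 4.84-fold higher and SPAG9, a scaffold of JNK and p38 kinases, 4.25-fold (414 against 97.3 CPM). SPAG9 exceeded its other-cell level in all 5 pairs and had UMIs in 82 of the 83 cells.

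NF-kB feedback genes differed in part. TNIP1, a partner of A20, was at 166 CPM in antiviral-high and 55.5 CPM in other cells, a ratio of 2.99. BIRC3, an inhibitor of apoptosis, had 2.77, NFKBIZ 2.99, TNFAIP3 (A20) 2.13 and NFKBIA 2.07, which made 5 of 20 tested members past 2-fold. The share at least 2-fold higher over all tested genes was 1.33%. NFKBIA ran over 1.62 to 2.76 across the alternatives, with 1.62 without pair 1+2, so its place past 2-fold depended on the setting. The other well-known targets ICAM1 (1.18), NFKB1 (0.86) and IER3 (0.77) did not pass it. Chemokines other than CCL5 were scarce. CXCL10 had 12 UMIs in antiviral-high cells, a ratio of 1.21, and IL6 had 6 UMIs in 4 cells. IL32 (3.47) and IL1B (2.25) passed 2-fold among 9 tested cytokines, IL1B with 67.6% of its UMIs in 5 cells.

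Interferon transcripts themselves were nearly absent in cells of the 5 pairs. The antiviral-high cells held 0 UMIs of IFNB1, IFNL1, IFNL2, IFNL3 and of every listed IFNA gene, and 1 UMI of IFNE. For each gene at 0 the limit, set at 3 UMIs, was 1.07 CPM. The other cells held 1 UMI of IFNL1 and 11 of IFNE. In antiviral-high cells of the other 13 pairs, 285 in number, there were 6 UMIs of IFNL1, 6 of IFNL3, 1 of IFNL2 and 1 of IFNA2. Cells without a readable pair held 17 UMIs of IFNL1 in 2 cells, 9 of IFNL2 in 1 cell and 16 of IFNL3 in 1 cell. IFNL2 and IFNL3 are near-identical, so their UMIs cannot be told apart with certainty. At this depth a rare interferon transcript could be missed.

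Genes lower in antiviral-high cells were few at high counts. TNFRSF10D, a decoy receptor of TRAIL, had 1 UMI in antiviral-high cells, where its level was 0.36 CPM, and 274 UMIs and 5.41 CPM in other cells (ratio 0.066, interval 0.0017 to 0.37). It was lower in all 5 pairs. CXCL8, a neutrophil chemokine, had a ratio of 0.13, but 10 cells held 83% of its UMIs in other cells. KRT6B (0.17) likewise had 85.4% of its other-cell UMIs in 10 cells. NANOS1, an RNA-binding repressor, had a ratio of 0.14 and was lower in all 5 pairs, on 4 against 505 UMIs. The other 6 of the 10 smallest ratios, MANBA, UCN2, PDIK1L, MED26, AC008124.1 and SLC46A3, each rested on 2 or 3 UMIs in antiviral-high cells. Over 21 alternatives the ratio ran over 0 to 0.165 for TNFRSF10D, 0.0832 to 0.3001 for NANOS1 and 0.0651 to 0.297 for CXCL8, and KRT6B reached 1.06 without 1 set of cells rich in SERPINB3 and SERPINB4.

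Lists unrelated to interferon had sums near 1. Housekeeping genes had a summed ratio of 1.01, ribosomal protein genes 0.99, mitochondrial transcripts 0.98, S phase genes 0.96 and p53 targets 1.01. Of 10 tested p53 targets, 2 were at least 2-fold lower (1.5% over all tested genes), namely ZMAT3 (0.381) and the cytokine GDF15 (0.432). Stress response genes had 1.09, with JUNB (2.12) as the 1 member past 2-fold of 11 tested (1.33% over all tested genes). G2 and M phase genes were at 5324 CPM in antiviral-high and 4207 CPM in other cells, a ratio of 1.27. None of their 32 members passed 2-fold, and single pairs ranged over 0.98 to 1.72, with pair 3+5 lowest. The median cell held 4054 CPM of these genes in antiviral-high and 2830 CPM in other cells. The list sum was higher in antiviral-high cells in 4 of 5 pairs, and the part of the cell cycle in the ratios above was not tested.

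**Figure D3:**
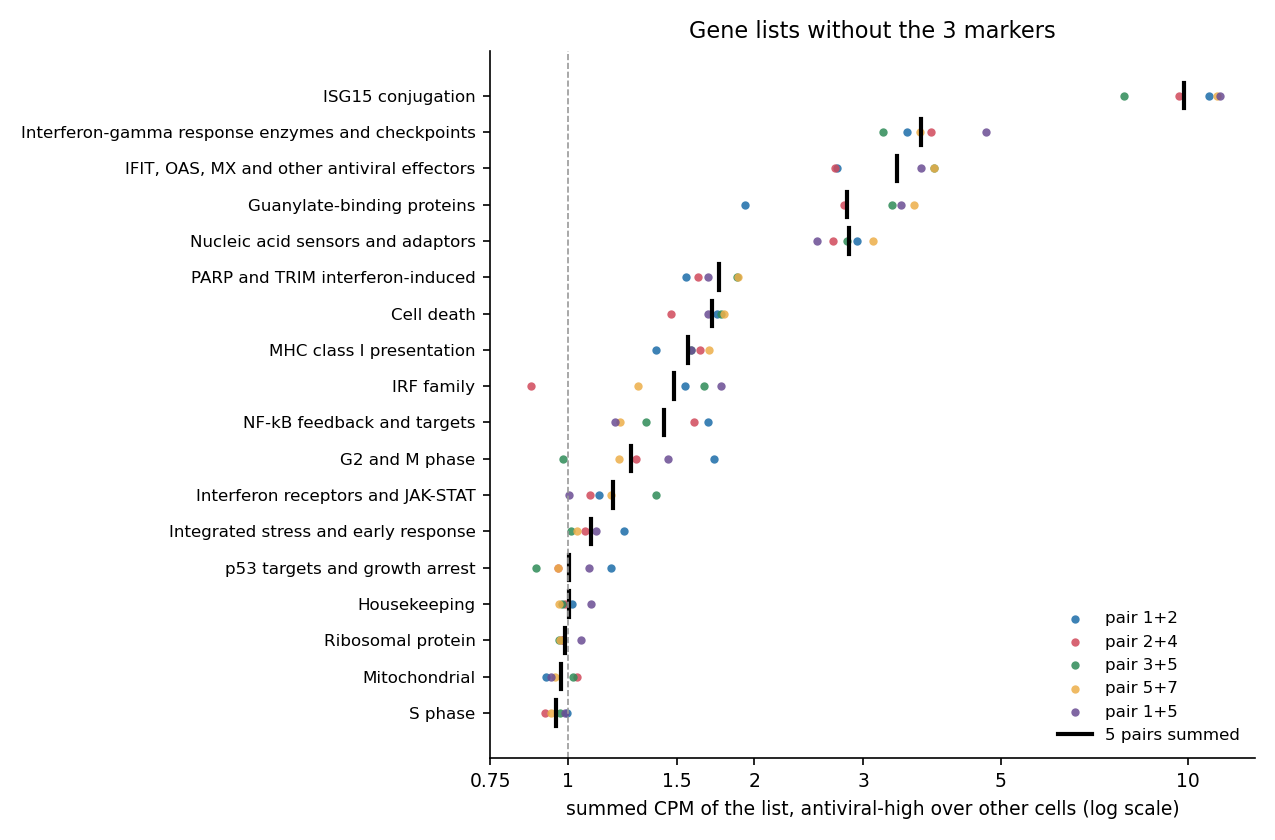
Ratio of the summed CPM of each gene list, without the 3 markers, in antiviral-high over other cells (x axis, log scale), for each pair (points) and the 5 pairs summed (bars). ISG15 conjugation (9.85), interferon-gamma response enzymes (3.71) and antiviral effectors (3.40) lay highest, and housekeeping (1.01), ribosomal (0.99) and S phase (0.96) genes near 1. The ISG15 conjugation sum came mostly from ISG15 itself, and 2 of its 5 members were tested, with ratios of 10.8 and 2.46. Among 10 tested interferon-gamma response enzymes and checkpoints the ratio ran over 0.96 to 6.89.

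Levels followed the number of marker UMIs on both sides of the threshold. Cells with 0, 1, 2, 3 to 9, 10 to 29 and 30 or more marker UMIs numbered 1525, 107, 15, 29, 37 and 17. In that order ISG15 was at 380, 628, 1481, 2715, 5072 and 5889 CPM, and OASL at 5.27, 20.4, 104, 315, 816 and 991 CPM. IFIT3 was at 40.5, 76.2, 429, 516, 1318 and 1546 CPM. Cells just below the threshold thus already stood above cells without a marker UMI. IRF7 (17.9, 23.5, 24.1, 9.27, 20.5 and 17.8 CPM) showed no such order, and MX1 (24.8, 61.0, 94.4, 65.9, 71.5 and 116 CPM) was already at 94.4 CPM in cells with 2 marker UMIs. The median depth per bin lay between 29819 and 33532 UMIs, and the 12 housekeeping genes stayed between 16989 and 18663 CPM.

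**Figure D4:**
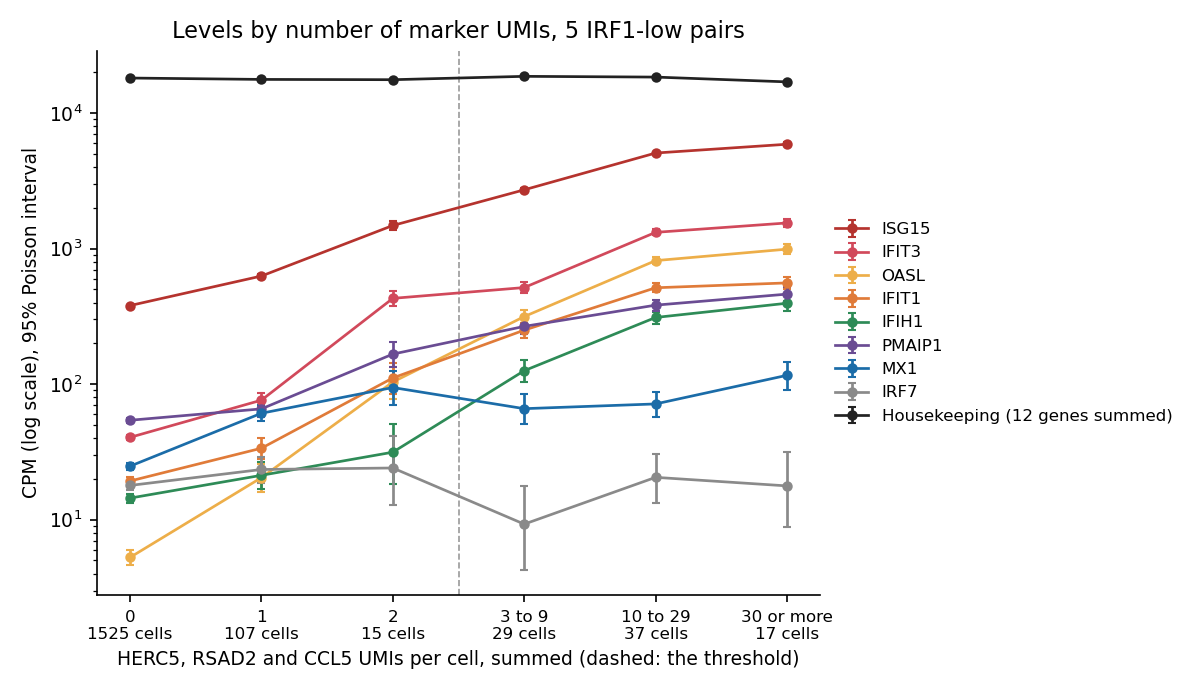
CPM (log scale) with 95% Poisson intervals in cells of the 5 IRF1-low pairs, binned by the summed UMIs of HERC5, RSAD2 and CCL5, with cell numbers under each bin. ISG15, IFIT3, OASL, IFIT1, IFIH1 and PMAIP1 were higher in bins with more marker UMIs, MX1 less so, and IRF7 and the summed housekeeping genes showed no such order.

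The antiviral-high cells varied widely among themselves. IFIT3 ran over 0 to 4837 CPM per cell with a median of 676, ISG15 over 197 to 13448 CPM with a median of 4084, and OASL over 0 to 2241 CPM. Of the 5 cells without IFIT3, 3 were in pair 2+4, where the median cell held 149 CPM of IFIT3, against 635 to 1114 CPM in the other 4 pairs. Within these 83 cells the IFIT genes went together, with Spearman's rho of 0.83 between IFIT1 and IFIT3 and 0.82 between IFIT2 and IFIT3. IFIT1 also went with PMAIP1 (rho 0.68), and OASL with IFIH1 (0.65), HERC5 (0.61) and ISG15 (0.56). HERC5 helped to choose the cells, so its order within them is shaped by the rule. ISG15 did not follow the IFIT genes, with a rho of 0.04 with IFIT3 and 0.10 with IFIT1. In other cells the rho was 0.25 between IFIT1 and IFIT3 and 0.26 between ISG15 and IFIT3, where most cells hold few of these UMIs. All cells share 1 library and each level is per total UMIs of the cell, so these correlations describe the cells and carry no p.

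IFIT1 and IFIT3 varied with the summed G2 and M phase genes within the antiviral-high cells, with a rho of 0.49 and 0.46. IFIT2 had a rho of 0.30, against -0.16 in other cells. ISG15 had a rho of -0.21 in antiviral-high cells and -0.31 in other cells. RSAD2 had a rho of -0.22. The 41 cells above the median G2 and M sum held 1502 CPM of IFIT3, against 593 CPM in the 42 cells at or below it, a ratio of 2.53 (2.33 to 2.75). The ratio was 2.30 for IFIT1 and 2.36 for IFIT2. RSAD2 was at 163 CPM in cells above and 347 CPM in cells at or below the median (ratio 0.47) and HERC5 had a ratio of 1.07, but both helped to choose the cells, so their order within them is shaped by the rule. In other cells the rho with the G2 and M sum was -0.03 for IFIT1 and -0.06 for IFIT3. Of these 1647 cells, 1057 held no IFIT1 UMI and 815 no IFIT3 UMI. Centring the ranks of all 83 cells within pairs gave 0.49 for IFIT1 and 0.44 for IFIT3, and thinning to 10000 UMIs gave 0.41 and 0.43. In the 285 antiviral-high cells of the other 13 pairs the rho was 0.28 for IFIT1 and 0.30 for IFIT3, and 0.01 and -0.02 in the 4099 other cells there. For IFIT2 it was 0.096 and for ISG15 -0.072 in those 285 cells, close to 0. The G2 and M sum itself went with total UMIs (rho 0.49), and the part of depth was not tested beyond the thinning.

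**Figure D5:**
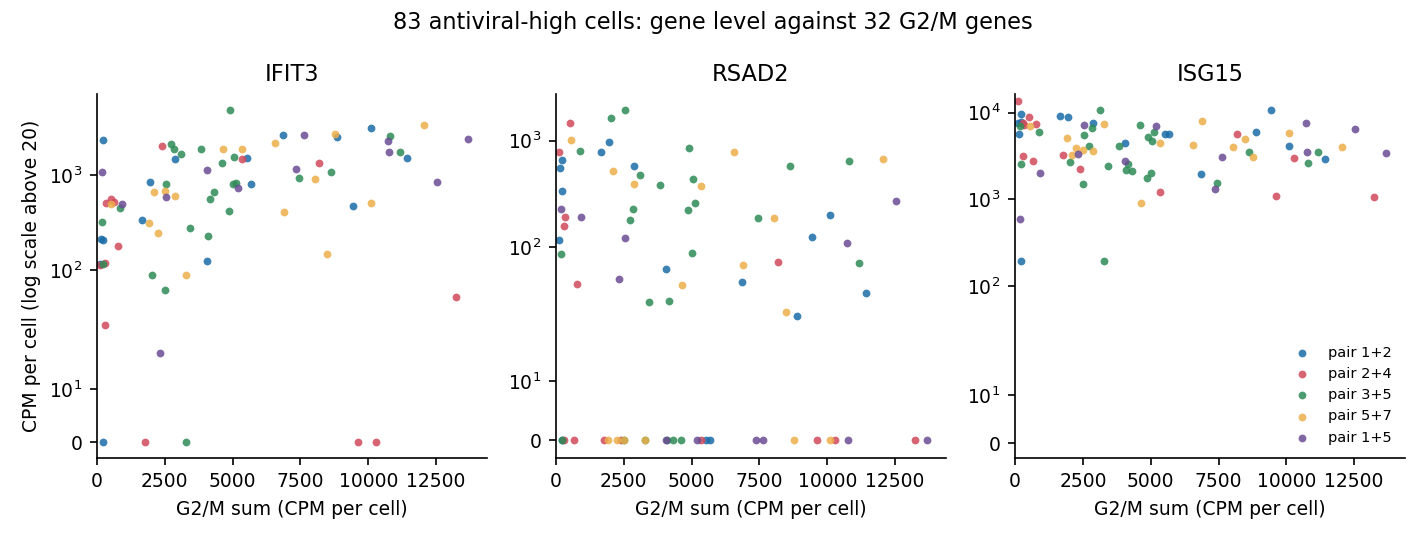
CPM per cell of IFIT3, RSAD2 and ISG15 (y axes, logarithmic above 20) against the summed CPM of 32 G2 and M phase genes (x axis) in the 83 antiviral-high cells, coloured by hashtag pair. IFIT3 tends upward with the sum (rho 0.46), and RSAD2 (rho -0.22) and ISG15 (rho -0.21) do not.

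The same rule in the other 13 pairs, which held more IRF1, found 285 of 4384 cells, or 3.43% to 9.55% per pair. Of the 24 tested antiviral effectors, 20 had a smaller ratio in those pairs, and all 24 had a higher level in the other cells there. The same counts were not made over all tested genes, so they do not set the effectors apart. The other cells of those 13 pairs held 21.6 CPM of OASL, 347 CPM of IFIT3 and 1008 CPM of ISG15. OASL had a ratio of 92.1 in the 5 IRF1-low pairs and 27.6 in the other 13, IFIT3 23.1 and 3.85, IFIH1 17.6 and 4.24, ISG15 10.8 and 4.66, and GBP4 9.17 and 1.61. For 4 genes outside the interferon lists, picked after their values were seen, the ratios were closer, with PLAUR at 5.07 and 4.13, SPAG9 at 4.25 and 3.44, HIP1R, a clathrin-binding protein, at 7.27 and 6.62, and GRB10, an adaptor of receptor kinases, at 4.92 and 5.24. The difference between the sets of pairs was not tested.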

How the data were processed

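Cells of 1 pool were profiled by droplet 3' RNA sequencing with 8 hashtags. The authors deposited unnormalized counts of UMIs for genes and hashtags by barcode, made with Cell Ranger 5.0.1 per the file headers, whereas Cell Ranger 2.1.1 and GRCh38 stand in the submitters' processing notes, a difference not settled here. Barcodes under 500 genes or above 20% mitochondrial UMIs were removed. A pair was the 2 highest hashtags when the second held at least 5 times the third plus 1, and no other doublet caller was run. Counts were summed over the cells of each group and divided by the group's total UMIs (CPM). Ratios carry exact conditional intervals, levels exact Poisson and shares exact Clopper-Pearson intervals, all at 95%. Genes with at least 10 UMIs awaited in antiviral-high cells at equal levels were called tested, and 2-fold served as the limit. For shares of cells with a UMI, cells were thinned to 10000 UMIs (seed 1). The genes named were the 3 markers, the 20 largest and 10 smallest ratios, interferons and the most abundant members of each list. Further genes, such as SPAG9, PLAUR, KLF4, GRB10 and S100A9, were named after their values were seen, and some genes under this rule are not reported here. The members and lists were chosen with earlier results of these data known. Alternatives varied the marker minimum, cell filter, hashtag rule, depth, pairs pooled, scaling, cell weights and depth limit. The computations used Python 3.11.15, numpy 2.4.6, scipy 1.17.1, pandas 2.3.3 and matplotlib 3.10.9 and were tested on simulated data. Promoter windows came from RefSeq.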

Additional observations from a re-analysis of the deposited data

Results flagged for a closer look

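Cells outside the comparison also met the marker rule. Of 1087 cells without a readable hashtag pair, 128 held at least 3 marker UMIs (11.8%, exact binomial interval 9.92 to 13.8%), above the share in the 5 pairs. These cells had a median of 51617 UMIs, and the third hashtag held 17.2% of their hashtag UMIs. Their part in the share was not tested. Of 603 barcodes removed by the cell filter, 9 met the rule (1.49%, 0.685 to 2.81%), with a median of 5200 UMIs over all removed barcodes.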

How the results depend on the processing

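Both groups came from the same hashtag pairs, but no paired test was made because the data are 1 pool without replicate samples. Stratifying the cells by hashtag pair gave 137 genes at least 2-fold higher, 158 lower and an effector ratio of 3.39. The share of antiviral-high cells was 3.12% with at least 10 marker UMIs and 3.24% with at least 2 of the 3 markers detected. Genes at least 2-fold higher numbered 87 under a stricter cell filter (1000 genes, 10% mitochondrial UMIs), 596 with at least 1 UMI awaited, 58 with at least 50 awaited and 58 at 3-fold. Genes at least 2-fold lower numbered 1110 with at least 1 UMI awaited, 21 with at least 50 and 18 at 3-fold. The summed ratio of antiviral effectors was 3.23, 3.63 and 3.89 with at least 2, 5 and 10 marker UMIs, 3.59 with 100 marker CPM, 3.597 with at least 2 markers detected, 3.32 under the stricter cell filter and 3.05 in cells of middle depth. It was 3.61 without pair 1+2, 3.53 without 2+4, 3.21 without 3+5, 3.30 without 5+7, 3.46 with ratios divided by their median, 3.32 without the cells with most marker UMIs and 3.52 against other cells with 0 marker UMIs, a comparison added after seeing the data. S100A9, with 107 UMIs in 1 antiviral-high cell, had a ratio of 3.57 as reported, and of 0 with at least 5 or 10 marker UMIs, with 100 marker CPM and with at least 2 markers detected. In these settings, antiviral-high cells that no longer qualified, this cell among them, counted among the other cells. KRT6B had a ratio of 1.06 without cells with 3 or more SERPINB3 and SERPINB4 UMIs, also added after seeing the data. The causes were not tested.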
